A study of Mus musculus with 3 samples.

Results

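Small leucine-rich proteoglycans (SLRPs) are secreted matrix proteins, and 10 of their genes, *Dcn* (decorin), *Bgn* (biglycan), *Aspn* (asporin), *Fmod* (fibromodulin), *Lum* (lumican), *Prelp* (prolargin), *Omd* (osteomodulin), *Epyc* (epiphycan), *Ogn* (osteoglycin) and *Chad* (chondroadherin), were followed across the cell types of the mouse cochlea. They were chosen by family membership and found by their symbols, 10 of the 32285 genes in the count tables. The study profiled dissociated cochlear cells of mice labelled C57/B6 (C57BL/6J in the study's methods) at postnatal day 14 (P14) and 28 (P28) by droplet single-cell RNA sequencing (10x Genomics), with no genetic change or treatment named in the labels. P14 was represented by 1 library and P28 by 2, called replicates 1 and 2. Each library pooled 14 ears of 7 mice, so the spread between mice cannot be seen. Tests with 3 libraries took the library as a block, so their p-values rest in part on how the difference between cell groups varied between libraries. Tests with 2 libraries had no block, and their p-values rest in part on the spread between libraries. In both, the test program edgeR draws the spread of each gene towards that of all genes tested. A small p-value thus does not show that the gene's own values were close between libraries.

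SLRPs carry a core of leucine-rich repeats that binds collagen fibrils, and many bear a chondroitin, dermatan or keratan sulfate chain. In connective tissue they set how collagen fibrils assemble and hold growth factors of the TGF-β family near the cell. In the cochlea the collagen-rich matrix includes the spiral limbus, the spiral ligament, the basilar membrane and the bone of the otic capsule, and an acellular gel, the tectorial membrane, is laid down by epithelial cells.

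Several of these genes are neighbours in the genome (GRCm38, GENCODE M21). *Dcn*, *Lum* and *Epyc* lie with *Kera* (keratocan) on the plus strand of chromosome 10 within 202.8 kb, *Dcn* at 97479609 to 97518143, *Lum* at 97565128 to 97572703 and *Epyc* at 97644068 to 97682454. *Aspn*, *Omd* and *Ogn* follow *Ecm2* within 119.7 kb of chromosome 13. *Prelp* and *Fmod* lie with *Optc* within 151.1 kb of chromosome 1, *Chad* is on chromosome 11 and *Bgn* on the X chromosome. Start-site windows of 300 bases from RefSeq (GRCm38.p6, 250 bases before the start and 50 after it) were at hand for 8 of the 10 genes. The 3 windows below belong to the gene most concentrated in epithelial cells (*Epyc*, chr10:97643818-97644117, plus strand) and to a pair whose levels were high together in 1 connective class (*Bgn*, chrX:73483351-73483650, and *Ogn*, chr13:49607765-49608064, both plus strand). Capitals mark the letters TATAAA or GGGCGG on either strand.
Epyc: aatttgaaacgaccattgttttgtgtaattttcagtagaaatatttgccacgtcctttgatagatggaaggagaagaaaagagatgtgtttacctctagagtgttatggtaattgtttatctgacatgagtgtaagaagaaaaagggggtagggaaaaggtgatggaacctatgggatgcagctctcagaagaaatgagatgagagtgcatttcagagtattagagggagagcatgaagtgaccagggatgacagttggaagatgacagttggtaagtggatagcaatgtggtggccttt
Bgn: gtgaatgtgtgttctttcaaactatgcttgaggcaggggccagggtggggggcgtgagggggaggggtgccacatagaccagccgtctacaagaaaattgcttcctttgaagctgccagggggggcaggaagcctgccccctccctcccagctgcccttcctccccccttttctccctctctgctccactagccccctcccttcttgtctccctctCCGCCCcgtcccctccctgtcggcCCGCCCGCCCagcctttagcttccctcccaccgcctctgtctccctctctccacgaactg
Ogn: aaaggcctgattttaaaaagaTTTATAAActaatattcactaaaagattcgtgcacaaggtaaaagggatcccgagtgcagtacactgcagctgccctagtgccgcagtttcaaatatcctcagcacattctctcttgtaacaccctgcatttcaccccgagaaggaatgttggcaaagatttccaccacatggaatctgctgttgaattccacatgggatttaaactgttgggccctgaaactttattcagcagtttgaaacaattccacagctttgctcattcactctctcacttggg
The *Bgn* window held GGGCGG on the minus strand 3 times, with its first base at positions -34, -10 and -6 from the start and the last pair overlapping by 2 bases. The *Ogn* window held TATAAA on both strands, overlapping, at -229 and -227. The *Epyc* window held neither, and none of the 8 windows held TGANTCA. Of all 32851 windows of this length, 13.6% held TATAAA, 35.7% GGGCGG and 7.81% TGANTCA. The GC content was 40.3% for *Epyc*, 63.7% for *Bgn* and 42.3% for *Ogn*.

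The P14 library held 10125255 unique molecular identifiers (UMIs, each 1 captured RNA molecule) in 2513 barcodes, and the P28 libraries held 35485894 and 37530956 in 11948 and 18196 barcodes. Barcodes with 200 to 6000 genes and at most 15% mitochondrial UMIs were kept, 1662 at P14 and 5651 and 7065 at P28, with a median of 2477, 2421 and 2037 UMIs. The kept cells of P14 shared 4 and 7 barcode sequences with those of the P28 replicates, which shared 10 with each other. No cells were removed as doublets. Levels below are CPM, the UMIs of a gene per 1000000 UMIs summed over the cells of a class and library. These 3′ counts are tied to molecules and not to transcript length, but capture can differ between genes, so orders between genes are descriptive.

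Cells were clustered without the 10 genes and classes were named from markers. The nonsensory epithelial compartment (594 cells at P14, 1852 and 2067 at P28) was marked by *Epcam*, at 954, 448 and 446 CPM against 8.22, 15.4 and 19.0 CPM in connective cells. It held a class with markers of inner sulcus, Hensen and outer sulcus cells (ISC/HeC/OSC-like; 481, 902 and 975 cells), Deiters and pillar (DC/PC-like), inner phalangeal and border (IPhC/IB-like), spindle and root (SpC/RC-like) and Reissner's membrane cells (RM-like). IPhC/IB-like and SpC/RC-like cells formed clusters of their own at P28 only. The SpC/RC-like cluster was also led by *Otoa* and *Ceacam16*. Of the other epithelial markers, *Krt8* and *Krt18* were higher in epithelial than in connective cells in every library. *Cdh1* was higher in epithelial cells at P14 only. At P28 *Cdh1* stood at 102.77 and 112.88 CPM in connective cells against 78.942 and 92.856 CPM in epithelial cells. The connective compartment (482, 2537 and 3558 cells) was marked by *Pdgfra*, at 559, 319 and 323 CPM. Its clusters were grouped by leading genes into *Ccl11* cells, *Abcc9 Moxd1* cells, *Coch Acan* cells (P28 only), bone cell-like (*Ibsp*, *Bglap*), fibrocyte-like (P28 only) and tympanic border cell-like (TBC-like) classes. The marker lists alone gave some of these clusters other names. By them the largest *Ccl11* cluster (1851 cells at P28) was *Abcc9 Moxd1* mesenchymal, and the *Ccl11* clusters of P14 were fibrocyte and TBC. The P28 clusters of *Abcc9 Moxd1* and *Coch Acan* cells stayed unnamed by the lists. At P14 the bone cell-like cluster was also led by *Coch* and *Acan*, and the *Abcc9 Moxd1* cluster by *Phex* and *Dmp1*.

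RNA free in the cell suspension gives UMIs in cells that do not express a gene, so macrophage-like, B cell-like and red blood cell-like (RBC-like) classes served as the background. In these, *Epyc* stood between 40.5 and 485.6 CPM at P14 and between 231.4 and 658.7 CPM at P28. *Dcn* stood between 37.1 and 510.03 CPM at P14 and between 32.6 and 1057 CPM at P28. The highest background levels of *Lum*, *Ogn* and *Bgn* were 102.6, 220.04 and 131.5 CPM, and those of *Prelp*, *Fmod*, *Chad* and *Omd* were 68.3, 7.95, 7.46 and 7.59 CPM. These levels were not equal between the 3 classes, and the part of free RNA in each value was not tested.

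*Epyc* and *Dcn* together held most SLRP UMIs. *Epyc* took 77.8% of the UMIs of the 10 genes at P14 and 56.2% and 44.6% at P28. *Dcn* took 9.29%, 25.5% and 32.9%. *Lum* followed with 11.1% at P14 and 5.75% and 6.36% at P28. *Ogn*, *Bgn* and *Prelp* took 0.276% to 0.658% each at P14 and 2.49% to 6.99% at P28. *Fmod*, *Chad* and *Omd* took at most 0.423% each in any library. *Aspn* had 5, 2 and 10 UMIs in the libraries. These shares also move with the number of cells of each type that were captured.

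**Figure D1:**
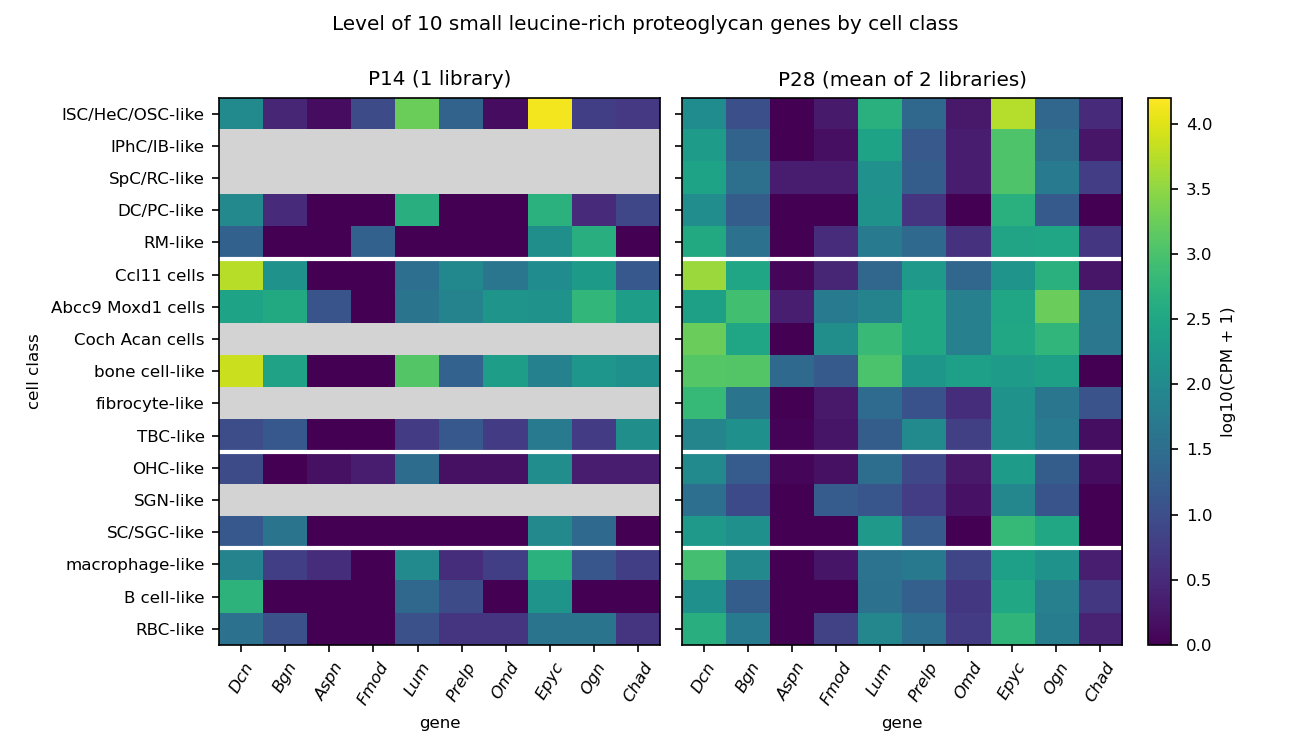
Level of the 10 genes (columns) by cell class (rows) as log10(CPM + 1), at P14 (1 library) and as the mean of 2 libraries at P28; grey marks classes without 10 cells in each library of that age, and white lines part nonsensory epithelial, connective, hair cell and neural, and background classes. *Epyc* is brightest in ISC/HeC/OSC-like cells and *Dcn* in *Ccl11* cells and, at P14, bone cell-like cells.

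The first comparison set the connective against the nonsensory epithelial compartment. Of the 9 genes tested, 6 were higher in connective cells and 2 in epithelial cells, with edgeR calling 46.9% of all 14036 genes tested. Decorin, which binds collagen and TGF-β, showed the highest connective levels. *Dcn* stood at 3712 CPM in connective cells of P14 and 1353 and 1298 CPM at P28, and at 98.6, 137.5 and 210.5 CPM in epithelial cells, a log2 fold change of 3.53 ± 0.51 (SE, n = 3 libraries; edgeR's quasi-likelihood test, adjusted p = 0.0026). The SE here and below was derived from edgeR's test statistic and is not the plain spread over libraries. The epithelial values of *Dcn* lay within or below its background range in the same library. *Bgn*, the closest relative of *Dcn*, stood at 159.7, 216.5 and 209.2 CPM in connective and at 1.81, 14.1 and 20.95 CPM in epithelial cells (log2 fold change 4.03 ± 0.46, edgeR adjusted p = 0.0011). *Omd*, a keratan sulfate proteoglycan of bone, had the largest log2 fold change of the 6, 4.38 ± 0.47 (edgeR adjusted p = 0.00093). It stood at 69.4, 15.8 and 18.3 CPM against 0.302, 1.07 and 1.51 CPM. The epithelial values of *Omd* came from 1, 8 and 9 UMIs and lay within or below its background range. Its lead over *Bgn* was smaller than the SE of either. The connective side was higher in all 3 libraries for each of the 6 genes. The share of all genes with 1 direction in every library was not counted.

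*Ogn*, *Prelp* and *Chad* differed less. Their log2 fold changes were 2.23 ± 0.32, 2.19 ± 0.23 and 2.31 ± 0.59 (edgeR adjusted p of 0.0025, 0.00083 and 0.021). For *Chad*, which lacks the chain of its relatives and binds integrins, the call was lost without integration (1.93, edgeR adjusted p = 0.073) and without the library as a block (2.97, edgeR adjusted p = 0.087).

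*Epyc* and *Lum* went the other way. *Epyc*, named from the epiphyseal cartilage in which epiphycan was described, stood at 11247, 3665 and 3150 CPM in epithelial cells of P14 and the P28 replicates and at 100.4, 138.1 and 170.9 CPM in connective cells (log2 fold change -5.35 ± 0.68, edgeR adjusted p = 0.0016). *Lum*, a keratan sulfate proteoglycan known from the cornea, stood at 1551, 319.8 and 349.3 CPM against 136.9, 40.4 and 66.8 CPM (-3.11 ± 0.34, edgeR adjusted p = 0.00092). For both genes the epithelial side was higher in every library, again without a share over all genes. The connective levels of *Epyc* lay within or below its background range. *Fmod* differed by 1.27 ± 0.90 (edgeR adjusted p = 0.29). Without the P14 library it was higher in connective cells, by 2.49 (edgeR adjusted p = 4.6e-05), and with cells thinned to 1000 UMIs by 2.70 (edgeR adjusted p = 0.022). *Aspn* had too few UMIs to be tested.

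**Figure D2:**
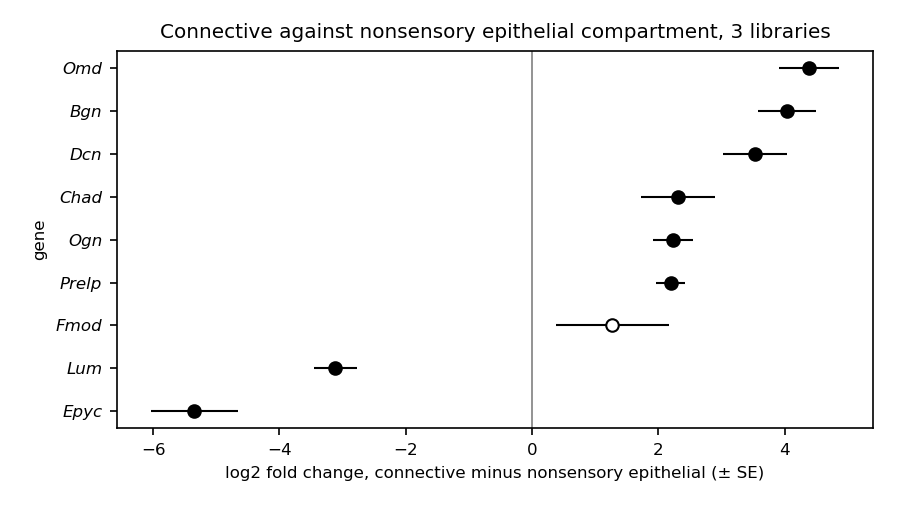
Log2 fold change (horizontal axis, ± SE) of 9 SLRP genes, connective minus nonsensory epithelial compartment, over 3 libraries; filled points passed an adjusted p of 0.05 in edgeR and the open point did not. *Omd*, *Bgn* and *Dcn* lie farthest to the right and *Epyc* farthest to the left. The SE was derived from edgeR's test statistic.

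Within the epithelium, ISC/HeC/OSC-like cells were compared with the other epithelial classes. Of the 8 genes tested, 2 were higher and 2 lower, and edgeR called 25.6% of all genes. *Epyc* stood at 13336 CPM at P14 (95% Poisson interval 13200.0 to 13472) and at 5787 and 5169 CPM at P28, a log2 fold change of 3.85 ± 0.43 over the other classes (edgeR adjusted p = 0.00064). These cells held 97.9% of all *Epyc* UMIs at P14 and 81.5% and 76.6% at P28. With each cell thinned to 1000 UMIs, 99.2%, 97.5% and 95.7% of them had an *Epyc* UMI, with a median of 13, 6 and 5 UMIs a cell. In the background classes the thinned share lay between 2.04% and 13.5% at P14 and between 8% and 31.6% at P28. With the study's own cell limits (at most 3000 genes and 15000 UMIs) the difference was 2.52 and no longer passed (edgeR adjusted p = 0.057). Under those limits 233 P14 epithelial cells with 17063 CPM *Epyc* fell in 2 unnamed clusters and so stood on the other side, and 141 cells kept the class name.

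*Lum* followed *Epyc* at a lower level in the same cells. It stood at 1783, 434 and 503 CPM, a log2 fold change of 2.10 ± 0.19 (edgeR adjusted p = 0.00026). Under the study's limits it was 1.45 (edgeR adjusted p = 0.075) and without the library block 2.33 (edgeR adjusted p = 0.066). In thinned cells a *Lum* UMI was found in 78.6% at P14 and in 32.6% and 35.0% at P28. *Epyc* was found in 99.0%, 98.5% and 97.5% of the cells with a *Lum* UMI, and in all of those without one at P14 and 97.1% and 94.8% of them at P28. Nearly all cells had *Epyc*, with or without *Lum*.

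The clusters of this class differed from each other. At P14 the clusters led by *Ucma* and *Rubie* held *Epyc* at 13926 and 12109 CPM, and the cluster led by *Agr3* and *Otogl* at 12055 CPM. *Lum* ranged from 1665 to 1824 CPM over the same 3 clusters. At P28 the largest cluster, also led by *Rubie* and *Ucma*, held *Epyc* at 6870 and 6473 CPM and *Lum* at 317 and 362 CPM in the replicates. A smaller cluster led by *Rubie* and *Lmo3* (30 and 105 cells) held *Lum* at 1290 and 1275 CPM and *Epyc* at 8623 and 5051 CPM. The remaining clusters held *Epyc* at 3586 to 5288 CPM and *Lum* at 415 to 526 CPM. The *Lum* level of this small cluster was above that of every other P28 cluster of the class in both replicates.

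**Figure D3:**
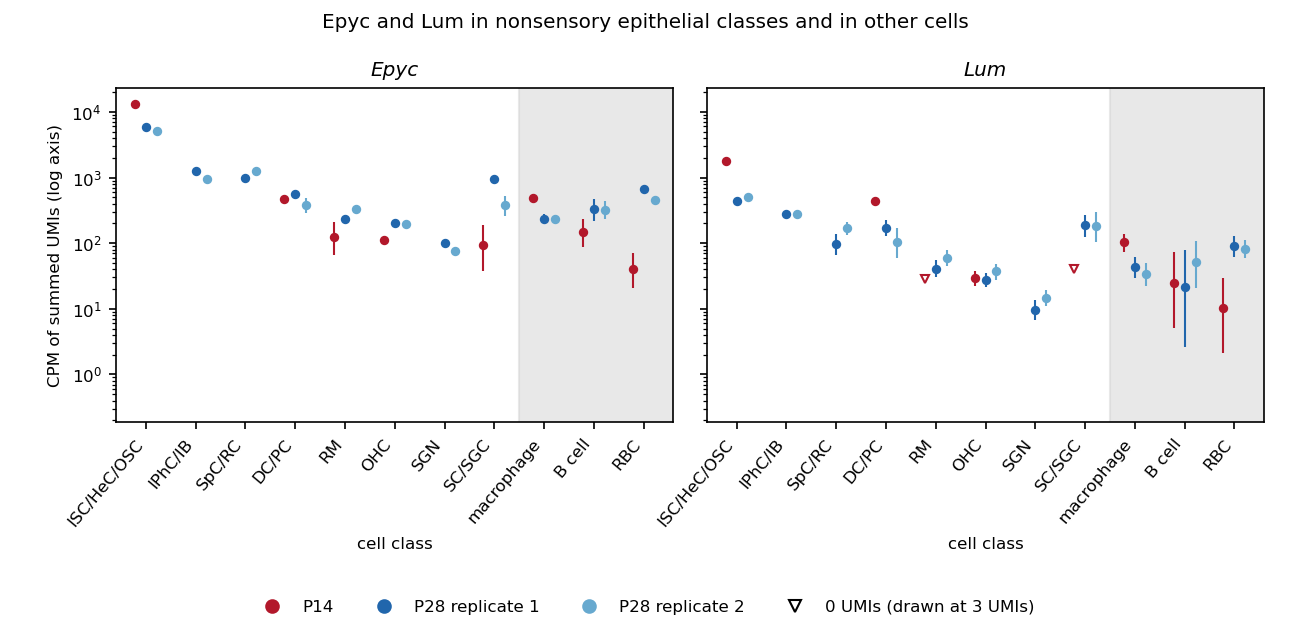
CPM (log axis) of *Epyc* and *Lum* by cell class and library, with exact 95% Poisson intervals; open triangles are 0 UMIs, drawn at the level of 3 UMIs, and the grey area holds the background classes. *Epyc* in ISC/HeC/OSC-like cells lies above every other class shown in each library.

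The other epithelial classes had lower *Epyc*. IPhC/IB-like cells stood at 1254 and 933 CPM and SpC/RC-like cells at 969 and 1260 CPM in the P28 replicates, above the background classes, and their order differed between the replicates. Against the other epithelial classes both were lower in *Epyc* (-1.95 ± 0.16, edgeR adjusted p = 9.6e-07, and -1.77 ± 0.18, edgeR adjusted p = 1e-06; n = 2 libraries). The other side held the ISC/HeC/OSC-like cells, with 81.5% and 76.6% of all *Epyc* and 59.8% and 52.3% of all *Lum* UMIs at P28. Lower calls of these 2 genes in any other epithelial class are thus not independent of that class. In the same way, lower calls of *Ogn* are not independent of RM-like cells, where its P28 mean was 301.7 CPM. That mean was 34.6 CPM in IPhC/IB-like, 23.1 CPM in ISC/HeC/OSC-like, 14.6 CPM in DC/PC-like and 52.3 CPM in SpC/RC-like cells. These 4 classes lay within or below the background range of *Ogn*. The P28 mean of *Epyc* was 1114.5 CPM in SpC/RC-like and 1093.6 CPM in IPhC/IB-like cells. It was 470.3 CPM in DC/PC-like and 282.9 CPM in RM-like cells. IPhC/IB-like cells had 3 of 6 genes called, all lower (*Epyc*, *Ogn* and *Lum*; 26.3% of all genes were called), and the call of *Lum* (-0.44, edgeR adjusted p = 0.028) was lost under 4 of 12 alternatives. SpC/RC-like cells had 2 of 6 called, *Epyc* and *Lum*, both lower, beside 15.9% of all genes. The count was 4 with the library as a block, 4 with 30% mitochondrial UMIs allowed and 5 at resolution 2, and *Epyc* and *Lum* were lower in each of these fits. DC/PC-like cells held *Epyc* at 474, 557 and 384 CPM, within the background range, and had 4 of 6 genes called, all lower (*Epyc*, *Lum*, *Ogn* and *Prelp*; 11.9% of all genes). The count was 2 without the library block (*Lum*, edgeR adjusted p = 0.24; *Ogn*, 0.062), with thinned cells and with 10 UMIs required in every sum, which left *Ogn* and *Prelp* untested. *Ogn* had 1, 3 and 3 UMIs and *Prelp* 0, 0 and 1 in DC/PC-like cells of P14 and the P28 replicates. *Lum* of DC/PC-like cells, at 434 CPM at P14 against 173 and 104 CPM at P28, lay above the background classes of the same library.

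RM-like cells, of the membrane between the cochlear duct and the scala vestibuli, were high in osteoglycin, which belongs to the same class of the family as epiphycan. *Ogn* stood at 447 CPM at P14 against 288 and 315 CPM at P28, where the highest background values in the same libraries were 40.5, 68.5 and 220.04 CPM. It was 3.66 ± 0.28 higher than in the other epithelial classes on the log2 scale (edgeR adjusted p = 3.7e-11). *Epyc* (-4.81 ± 0.37) and *Lum* (-3.80 ± 0.37) were lower, and *Bgn* was called higher (1.08 ± 0.25, edgeR adjusted p = 0.0015), so that 4 of 7 genes passed beside 33.8% of all genes. *Bgn* was at 0 UMIs in RM-like cells at P14 and at 31.4 and 40.6 CPM at P28, within its background range, its call was lost under 5 of 13 alternatives, and its direction turned at resolution 2 (-0.15). In ISC/HeC/OSC-like cells *Ogn* and *Bgn* were lower than in the other classes (-2.48 ± 0.27, edgeR adjusted p = 0.00057, and -1.17 ± 0.27, edgeR adjusted p = 0.015), the *Bgn* call being lost under 7 of 14 alternatives.

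Among connective classes, decorin marked the *Ccl11* cells. *Dcn* stood at 5520 CPM at P14 against 3932.5 and 3580.0 CPM at P28, 3.12 ± 0.37 above the other connective classes on the log2 scale (edgeR adjusted p = 0.00084), and 89.7%, 92.7% and 91.3% of thinned cells had a UMI. *Prelp*, which anchors basement membranes to collagen, was 0.94 ± 0.12 higher (edgeR adjusted p = 0.0013), at 91.0, 180.3 and 177.3 CPM. The other side pooled the UMIs of all other connective classes, of which TBC-like cells gave the most. At P28 the *Prelp* mean of *Ccl11* cells (178.8 CPM) was below *Abcc9 Moxd1* (318.2 CPM) and *Coch Acan* cells (316.7 CPM). It was above bone cell-like (168.5 CPM), TBC-like (96.1 CPM) and fibrocyte-like cells (10.4 CPM). *Chad* (-3.32 ± 0.45), *Lum* (-1.73 ± 0.24) and *Fmod* (-2.23 ± 0.56) were lower, so 5 of 9 genes were called beside 18.4% of all genes. Without the library as a block none of the 5 passed, at adjusted p from 0.079 (*Dcn*) to 0.37 (*Chad*). Their directions were kept under every alternative run. Without P28 replicate 2, 3 genes were called, and without the P14 library 8.

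The *Abcc9 Moxd1* cells (96 cells at P14, 226 and 259 at P28) carried most of the other members at once. Of the 9 genes tested, 7 were higher and 1 lower than in the other connective classes, beside 11.5% of all genes. *Ogn* stood at 592, 1702 and 1733 CPM (log2 fold change 2.80 ± 0.19, edgeR adjusted p = 9.1e-09) and *Bgn* at 353, 859 and 817 CPM (1.98 ± 0.16, edgeR adjusted p = 6.5e-08). *Prelp* stood at 74.04, 354 and 282 CPM (1.26 ± 0.18) and *Omd* at 148.1, 69.9 and 62.1 CPM (1.89 ± 0.24). *Chad* stood at 222.1, 59.9 and 33.6 CPM (2.91 ± 0.35). *Fmod*, which shapes collagen fibrils in tendon, had 0 UMIs at P14 and 29.95 and 77.6 CPM at P28 (3.39 ± 0.36, edgeR adjusted p = 4.3e-06). *Dcn* was the gene that was lower, at 268, 157 and 336 CPM (-3.03 ± 0.26, edgeR adjusted p = 1.6e-07), within its background range at both ages. The other side held the *Ccl11* cells, with 72.5%, 74.3% and 66.9% of all *Dcn* UMIs. Lower calls of *Dcn* in any other connective class are thus not independent of the *Ccl11* cells. *Epyc* was called higher (0.93 ± 0.15), but its 142, 250 and 365 CPM also lay within the background range. Without the library block 3 of the 9 genes were called.

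The *Coch Acan* cells of P28 (175 and 236 cells) resembled them in part, but with *Dcn* and *Lum*. Of 9 genes, 7 were higher than in the other connective classes and none was lower, beside 12.3% of all genes. *Lum* stood at 763 and 577 CPM (log2 fold change 4.17 ± 0.37, edgeR adjusted p = 6.7e-06; n = 2 libraries) and *Fmod* at 95.3 and 138.6 CPM (4.93 ± 0.50, edgeR adjusted p = 2.2e-05). The *Fmod* level was the highest of the named classes in both P28 replicates. *Chad* (38.1 and 51.6 CPM), *Omd* (83.9 and 48.4 CPM), *Prelp* (343 and 290 CPM) and *Ogn* (606 and 567 CPM) were also higher. *Epyc* was called higher, at 255.5 and 368 CPM, within its background range. *Dcn* stood at 1823 and 1593 CPM, 0.29 ± 0.11 from the others (edgeR adjusted p = 0.14). For *Prelp*, *Chad*, *Omd* and *Epyc* the P28 values of *Coch Acan* and *Abcc9 Moxd1* cells overlapped. With cells thinned to 1000 UMIs, an alternative chosen after the data were seen, the calls of *Ogn*, *Omd* and *Epyc* were lost.

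Bone cell-like cells (51 cells at P14, 10 and 48 at P28) had *Lum*, *Omd* and *Bgn*. *Lum* stood at 1197, 322 and 1710 CPM (log2 fold change 4.56 ± 0.54, edgeR adjusted p = 1.7e-14), *Omd* at 225.7, 128.9 and 346.5 CPM (3.25 ± 0.52, edgeR adjusted p = 4.2e-08) and *Bgn* at 265, 967 and 1371 CPM (1.72 ± 0.47, edgeR adjusted p = 0.0063). These 3 were the genes called of 8 tested, beside 5.57% of all genes. The calls were fragile in this small class, and the *Lum* levels of the P28 replicates lay far apart despite the small p-value. *Lum* was lost under 1 of 14 alternatives (30% mitochondrial UMIs allowed), *Omd* under 6 of 14 and *Bgn* under 11 of 15, *Omd* and *Bgn* without either P28 replicate. The 10 cells of P28 replicate 1 gave 5 *Lum* and 2 *Omd* UMIs. *Dcn* stood at 7302 CPM at P14, above the *Ccl11* cells of that library, and at 1482.5 and 1032 CPM at P28. Of the 10 *Aspn* UMIs of P28 replicate 2, 7 were in these cells (51.6 CPM).

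TBC-like and fibrocyte-like cells had low SLRP levels. TBC-like cells, which lie under the basilar membrane, were lower in 7 of 9 genes, beside 28.3% of all genes. Without the library block 4 were called (*Prelp*, edgeR adjusted p = 0.5, and *Bgn*, 0.15, among those lost), and with 10 UMIs required in every sum none of the 7 could be tested. *Dcn* stood there at 8.89, 63.1 and 96.5 CPM (-5.33 ± 0.37, edgeR adjusted p = 2.6e-07) and *Ogn* at 4.45, 55.45 and 52.65 CPM (-3.10 ± 0.20, edgeR adjusted p = 1.4e-07). *Prelp* of TBC-like cells at P28 (98.7 and 93.5 CPM) still lay above the background classes of the same library. *Chad* was not called, but 28 of the 108 *Chad* UMIs of the P14 library were in 8 of its 64 TBC-like cells, against 2 UMIs in each P28 replicate. Fibrocyte-like cells (235 and 353 cells) were lower in 7 of 9 genes and higher in *Chad* (16.5 and 5.65 CPM; 1.25 ± 0.42, edgeR adjusted p = 0.028), beside 44.4% of all genes. The *Chad* call was lost under 3 of 11 alternatives. *Dcn* stood there at 642 and 666 CPM, within its background range by level. More of these cells had a *Dcn* UMI, 144 of 235 and 194 of 353. In macrophage-like cells, the highest background class for *Dcn* at P28, 41 of 248 and 97 of 313 had one. These counts are from cells that were not thinned, and the part of free RNA was not tested.

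**Figure D4:**
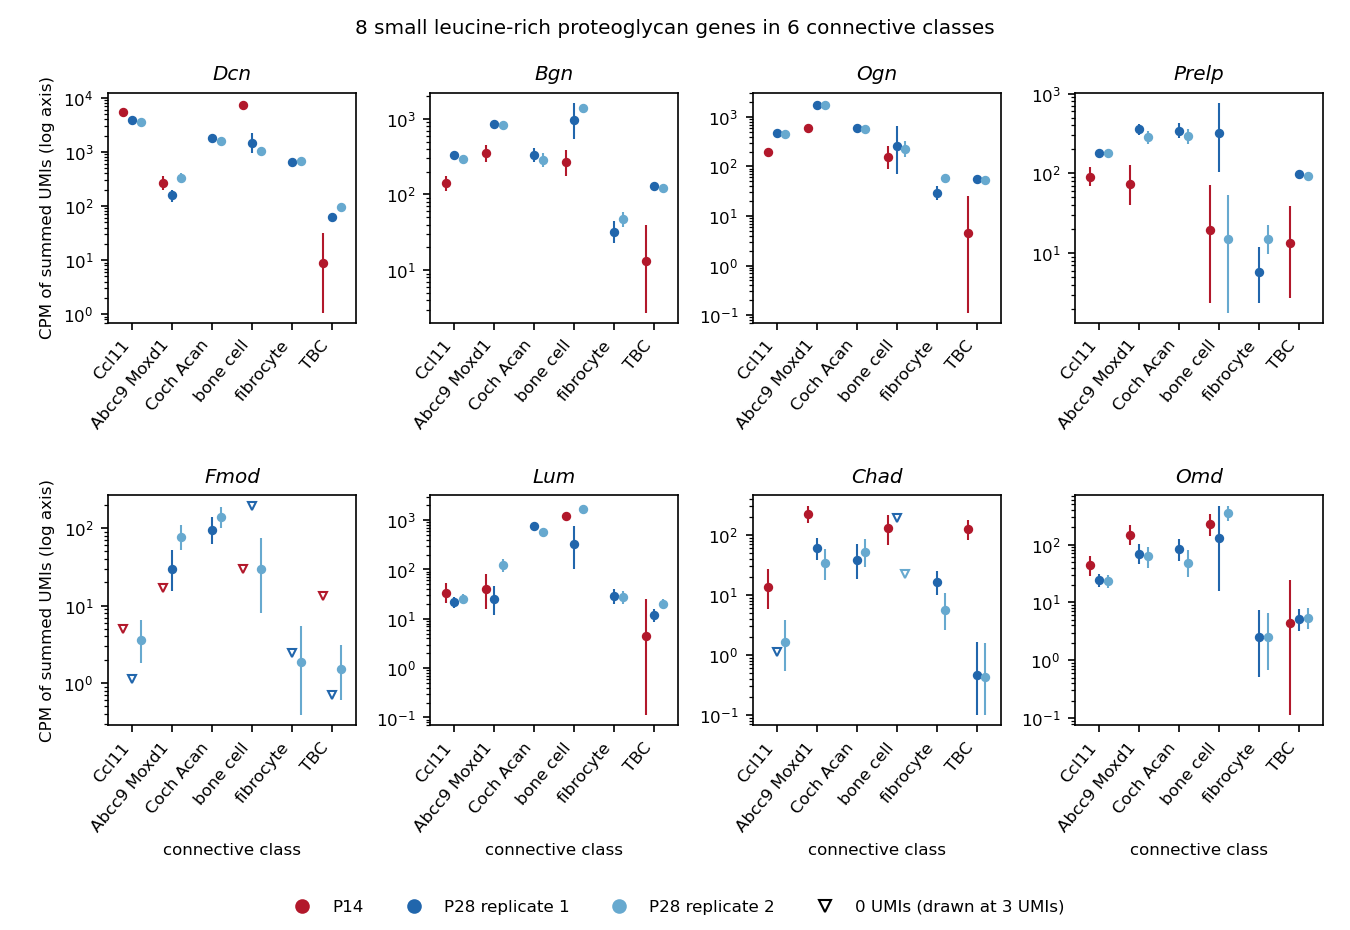
CPM (log axis) of 8 SLRP genes in 6 connective classes by library, with exact 95% Poisson intervals; open triangles are 0 UMIs, drawn at the level of 3 UMIs. *Ogn* peaks in *Abcc9 Moxd1* cells in each library, *Fmod* in *Coch Acan* cells at P28 among classes with UMIs, and *Dcn* is lowest in TBC-like cells.

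P14 and P28 were set side by side without a test, since P14 had 1 library. A gene was said to differ where its P14 level was at least 2-fold from both P28 libraries in 1 direction. In ISC/HeC/OSC-like cells 5 of 7 genes with at least 30 UMIs did so, beside 13.6% of all genes. *Epyc* was 2.30-fold and 2.58-fold higher at P14 (95% intervals of the counts 2.27 to 2.34 and 2.53 to 2.63) and *Lum* 4.10-fold and 3.54-fold. *Fmod* was at 8.27 CPM at P14 (23 UMIs) and at 1.39 and 0.614 CPM at P28 (6 and 2 UMIs). *Ogn* and *Bgn* were lower at P14, at levels within or under their background. Under the study's limits 1 gene and with thinned cells 3 genes differed in this class. Over the whole epithelial compartment 5 of 8 differed, beside 17.7%, but its classes took different shares of the cells at the 2 ages. *Ogn* was among the genes lower at P14 there, at 18.7 against 62.4 and 77.6 CPM. In DC/PC-like cells 1 of 3 differed (*Lum*, 2.52-fold and 4.17-fold higher at P14), beside 14.2%. Under the study's limits no P14 cells were named DC/PC-like and 56 were named IPhC/IB-like. In RM-like cells 4 of 6 were lower at P14, beside 22.1%, with 0 to 2 UMIs each at P14, while *Ogn* was 1.55-fold and 1.42-fold of its P28 levels.

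The connective classes went in both directions. In *Ccl11* cells 2 of 7 genes differed, beside 14.0% of all genes, *Bgn* (140, 329 and 291 CPM) and *Ogn* (194, 464 and 455 CPM) being lower at P14, and *Dcn* was 1.40-fold and 1.54-fold higher. In *Abcc9 Moxd1* cells 6 of 9 differed, beside 16.1%. Their P14 cluster was also led by *Dmp1* and *Slco1a4*, which at P28 led the *Coch Acan* cells, a class not found at P14. Within the *Abcc9 Moxd1* class *Ogn*, *Bgn*, *Prelp* and *Fmod* were lower at P14, *Ogn* at 0.348 and 0.342 of its P28 levels. *Chad* was 3.71-fold and 6.61-fold and *Omd* 2.12-fold and 2.39-fold higher at P14. *Ogn* and *Bgn* were thus lower at P14 in both these classes. Their highest background levels were lower at P14 too, 10.1 CPM against 58.7 and 131.5 CPM for *Bgn* and 40.5 CPM against 68.5 and 220.04 CPM for *Ogn*, and the part of free RNA in the difference was not tested. In TBC-like cells 7 of 8 differed, beside 27.4%, 6 lower at P14 on 12 UMIs or fewer and *Chad* higher. In bone cell-like cells 2 of 6 differed, beside 16.6%, *Dcn* being 4.92-fold and 7.07-fold higher and *Bgn* lower at P14. The P14 cluster of this class was also led by *Coch* and *Acan*, whose cells formed a class of their own at P28. P28 replicate 1 had 10 bone cell-like cells, with its 23 *Dcn* UMIs in 2 of them. Over the connective compartment 5 of 9 differed, beside 15.7%, but its classes took different shares of the cells at the 2 ages.

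**Figure D5:**
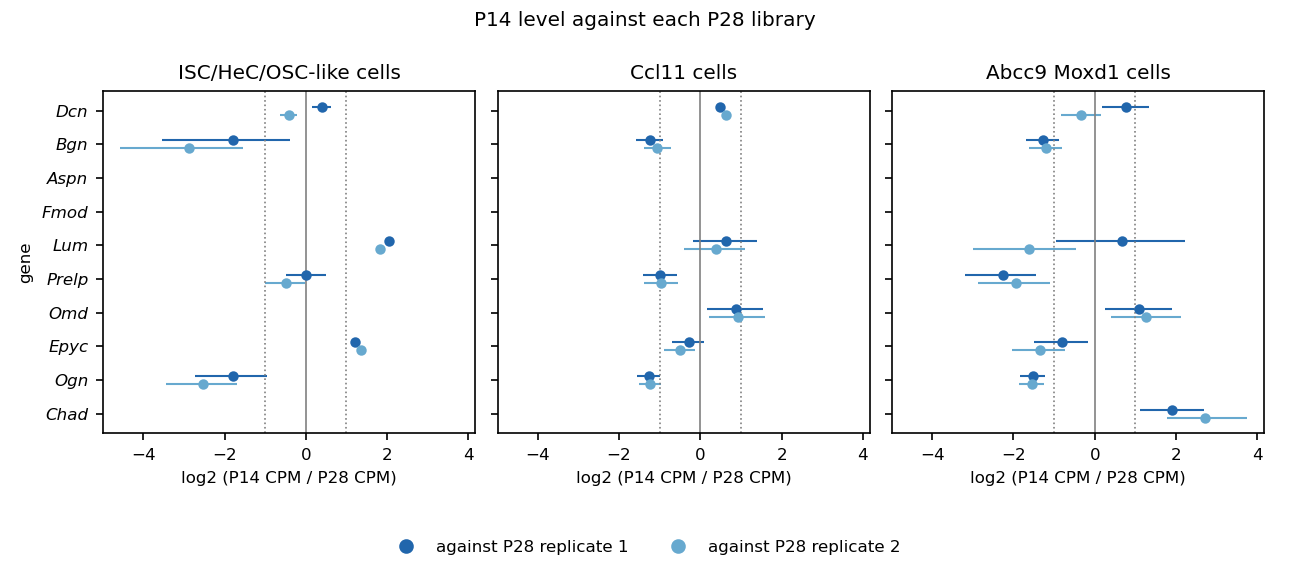
Log2 ratio of the P14 level to each P28 library (horizontal axis) for genes with at least 30 UMIs over the 3 sums and more than 3 in each, with exact 95% intervals of the counts; dotted lines mark 2-fold. *Epyc* and *Lum* lie to the right in ISC/HeC/OSC-like cells, and *Ogn* and *Bgn* to the left in all 3 classes shown.

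The genes around SLRPs were counted by lists, beside 22.2% of all genes higher and 24.7% lower in connective than in epithelial cells. Of the chondroitin and dermatan sulfate genes, 12 of 14 tested were higher and 1 was lower in connective than in epithelial cells, with a median log2 fold change of 1.63 beside -0.03 over all genes. The largest were *Chst7* (4.85), *Chsy3* (4.60), *Ust* (4.06) and *Chsy1* (3.59), a sulfotransferase, a chain polymerase, a uronyl sulfotransferase and a further polymerase. Of the keratan sulfate genes 3 of 6 were higher (*Chst1* by 3.70) and 2 lower (*Chst5* by -2.56, *B4galt4* by -2.05). Of the 6 linker genes, which start chondroitin and dermatan sulfate chains, 1 was lower (*B3gat3*, -0.63). Of 17 collagen genes 11 were higher, led by *Col1a1* (5.20) and *Col5a2* (4.77), and 1 lower. Of the 17, *Col1a1*, *Col1a2*, *Col3a1*, *Col6a1* and *Col6a2* were among the markers that named connective cells. *Col2a1*, *Col9a1* and *Acan* were among the markers of chondrocytes, a type counted as connective. The direction of these genes is thus not independent of the naming of the cells. Of 11 growth factor and receptor genes 5 were higher and 4 lower, of 6 protease genes 4 were higher, and the 3 large proteoglycans tested were higher (*Acan*, 4.16). Of SLRP relatives outside the 10 genes, *Ecm2* (4.03) and *Tsku* (3.27) were higher and *Chadl* (-2.04) lower.

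In ISC/HeC/OSC-like cells, where *Epyc* was highest, 12.7% of all genes were higher and 12.9% lower than in the other epithelial classes. There 6 of 10 collagen genes were higher, led by *Col9a1* (2.17 ± 0.18), *Col11a1* (2.04 ± 0.30) and *Col9a2* (1.52 ± 0.15), and 1 was lower. Of 11 chondroitin and dermatan sulfate genes *Chst15*, a chondroitin sulfotransferase, was higher (3.22 ± 0.46, edgeR adjusted p = 0.0021) and 2 were lower. Of 6 keratan sulfate genes 1 was higher and 3 were lower. In *Abcc9 Moxd1* cells 5 of 14 collagen genes were higher, among them *Col11a1* (1.50), *Col2a1* (1.42) and *Col9a1* (1.17), and *Col1a1* was lower (-4.32). Of all genes 5.53% were higher and 5.95% lower in these cells, and of the 18 chain genes tested 0 were higher, a share near that over all genes, and 3 lower.

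The genes most alike to each member were sought over 49 sums of class and library with at least 20 cells, by Pearson correlation of log2(CPM + 1) among 13983 genes, as a description. The sums share libraries and depth. *Epyc* was followed most closely by *Prss36* (0.92), *S100a13* (0.82) and *Prss23* (0.80), and *Lum* by *Gjb6* (0.70), *Sec61a1* and *Slc16a11* (0.67 each). *Dcn* was closest to *Col15a1*, *Gm17308* (both 0.81) and *Col3a1* (0.80). *Bgn* was closest to *Colec12*, *Fhl2* and *Foxc1* (0.88, 0.87 and 0.87), *Ogn* to *Dhrs3* (0.815), *Bgn* (0.79) and *Tead1* (0.78), and *Prelp* to *Pdpn*, *Itga8* and *Tbx18* (0.83, 0.83 and 0.82). *Omd* was closest to *S1pr3*, *Phex* and *Cxcl12* (0.90, 0.88 and 0.85), *Chad* to *Piezo2*, *Dpep1* and *Adamtsl3* (0.80, 0.78 and 0.75) and *Fmod* to *Adra2c*, *Rflna* and *Inmt* (0.70, 0.60 and 0.57). Among the members, *Bgn* with *Ogn* (0.79), and *Bgn* with *Prelp* and with *Omd* (0.76 each) correlated most, followed by *Lum* with *Epyc* and *Dcn* with *Bgn* (0.66 each). On chromosome 10, the neighbours *Dcn* and *Lum* correlated by 0.46, and *Dcn* and *Epyc*, at the ends of the cluster, by 0.04.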

How the data were processed

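The authors deposited, for each library, a matrix of raw counts (UMIs by gene and barcode). The matrix headers name Cell Ranger 5.0.1, while the submitters' processing notes name Cell Ranger 6.0.1 and mm10. The counts were not normalized and carried none of the study's filters.

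Cells with 200 to 6000 genes and at most 15% mitochondrial UMIs were kept. Seurat 5.3.0 (R 4.3.3) grouped P14 cells into 18 clusters and P28 cells, joined across replicates by anchors, into 32 (2000 variable genes, none of them an SLRP member; 30 principal components; resolution 1). To be named, a cluster had to show 3 or more markers detected in 5% of its cells and at least 1 log2 unit above the median over clusters. Names were withheld where markers of a different type prevailed in the top 10 genes. The 6 connective groups were drawn up from leading genes after the clusters were seen, and replaced the marker names of connective clusters. The members, markers and gene lists were chosen with earlier results of these data known.

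UMIs were summed per class and library (at least 10 cells on each side) and tested with edgeR 4.0.16 (quasi-likelihood test, TMM, default expression filter, Benjamini-Hochberg over all genes tested, threshold 0.05), with the library as a block for 3 libraries and none for 2. The SE of a log2 fold change is its absolute value divided by the square root of edgeR's quasi-likelihood F statistic. Both sides of a sum pair come from the same mice. As a check, the deviations of the 2 sides correlated by 0.08 to 0.54 over the comparisons and libraries. In simulated data with 200 genes changed 4-fold and no library or age effect, edgeR found 179 (89.5%) for connective against epithelial cells. It also made 27 false calls among 13816 genes. It found 193 (96.5%) with 32 false calls for ISC/HeC/OSC-like cells and 185 (92.5%) with 17 for *Ccl11* cells. For SpC/RC-like cells it found 150 (75%) with 7 false calls. In all but the last, false calls were a larger share of the calls than the threshold of 0.05. Of 12 comparisons none set P14 against P28. Intervals are exact (Poisson for levels and their ratios) and cover counting error only. Gene positions come from GENCODE M21 and the genes most alike to each member from Pearson correlation, 3 a member. From each list the text names up to 4 called genes with the largest log2 fold change. Python 3.11.15 with numpy 2.4.6, scipy 1.17.1, pandas 2.3.3 and matplotlib 3.10.9 did the rest.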

Additional observations from a re-analysis of the deposited data

Results flagged for a closer look

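For 2 results the order of the sides at P14 was the opposite of that in both P28 libraries. The difference between the ages was not tested, since P14 had 1 library. *Fmod* stood at 0 CPM in connective cells and 7.54 CPM in epithelial cells at P14, but at 4.18 against 1.07 CPM and 9.70 against 1.17 CPM at P28. *Dcn* stood at 19 CPM in RM-like cells of P14, on 2 UMIs, against 101.2 CPM in the other epithelial cells, but at 344 against 100.4 CPM and 372 against 180.5 CPM at P28. The RM-like values of P28 lay within the background range of *Dcn* in the same library (32.6 to 715.8 and 223.9 to 1057 CPM).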

How the results depend on the processing

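Counts of SLRP genes called changed by over 1.5 times as follows, and the cause was not tested. Without the library as a replicate block, the count fell from 5 to 0 in *Ccl11* cells, from 7 to 4 in TBC-like, from 8 to 3 in *Abcc9 Moxd1*, from 4 to 2 in ISC/HeC/OSC-like and from 4 to 2 in DC/PC-like cells. With the replicate block, chosen after seeing the data, it rose from 2 to 4 in SpC/RC-like cells. With 10 UMIs required in every sum, fewer genes could be tested and the counts were 3 (*Ccl11*), 0 (TBC-like), 4 of 8 (fibrocyte-like), 0 (bone cell-like), 2 (DC/PC-like) and 2 (RM-like). With 30% mitochondrial UMIs allowed they were 8 (*Ccl11*), 0 (bone cell-like) and 4 (SpC/RC-like). At resolution 2 they were 6 (IPhC/IB-like) and 5 (SpC/RC-like). In bone cell-like cells, 1 gene was called under the study's limits, without integration and with thinned cells. With thinned cells, also chosen after seeing the data, 4 were called in *Coch Acan* and 2 in DC/PC-like cells. Leaving out 1 library gave 3 to 8 in *Ccl11* and 1 to 3 in bone cell-like cells. Of the genes 2-fold from both P28 libraries, 1 (study's limits) and 3 (thinned) were found in ISC/HeC/OSC-like cells and 2 in RM-like cells at resolution 2, and leaving out a P28 library gave 1 to 2 in DC/PC-like cells. The *Bgn* log2 fold change in RM-like cells was -0.15 at resolution 2, the 1 reversal among 860 refitted values. Low UMI counts limit *Aspn*, *Fmod*, *Chad* and *Omd*.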

Other observations

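Some values outside the comparisons were picked after they were seen. At P28 a small cluster within the spiral ganglion neuron-like class, led by *Ngfr*, *Gldn* and *Rph3a* (8 and 16 cells), held *Fmod* at 310.1 and 655 CPM, from 29 UMIs in 4 cells and 71 UMIs in 7 cells. Schwann and satellite glial-like cells held *Ogn* at 26.7 CPM at P14 (2 UMIs) and at 310 and 320 CPM at P28 (50 and 28 UMIs), above the background classes of the P28 libraries. Intermediate cell-like cells, found in sufficient number in P28 replicate 2 alone (161 cells), held *Prelp* at 160.6 CPM.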
